A study of Mus musculus with 32 samples.

Results

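CTCF binding sites inside gene bodies were taken from the deposited peak list of mouse embryonic stem (ES) cells that express CTCF fused to green fluorescent protein (GFP-CTCF, called GC). A peak belonged to the set when its centre lay between the start and end of an annotated gene and more than 5 kb from every gene start. The rule took 8882 of the 26729 GC peaks, or 33.2%. Another 5929 peaks lay at most 5 kb from a start, and 11918 lay outside genes and farther from every start. The rule used position in the genome only, and neither the second peak list nor any expression value.

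The study set cells whose GFP-CTCF lacks zinc finger 8 (labelled Del8 in ChIP-seq and d8 in RNA-seq) against cells with the full-length fusion protein. All cells were ES cells of strain 129, and the GFP fusion is shared by both genotypes. CTCF peaks came from 1 ChIP-seq library of each genotype, made with a home-made CTCF antibody. RNA-seq covered 3 d8 lines (8 libraries) and 2 GC lines (6 libraries). Headers name clone C6 for the Del8 ChIP library, and which d8 RNA line this is was not given in the sources used here. The GC line of the GC ChIP library was not given either. The other ChIP samples of the series and its DNA methylation samples were not analysed here.

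CTCF reads a long DNA motif through the middle members of its row of zinc fingers. Together with the cohesin ring it anchors chromatin loops and marks domain borders. Sites within genes lie in the path of RNA polymerase, and in other systems such sites have been linked to alternative exon use and to contacts between promoters and distal elements. Zinc finger 8 lies outside the group of fingers that reads the core of the motif.

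The RNA libraries held 14.3 to 16.7 M reads, as recovered from the deposited values. The ChIP libraries held 5.59 M tags (Del8) and 8.09 M tags (GC). A peak needed 8 tags in the Del8 library and 9 in the GC library, which is 14.3 and 11.1 tags per 10 M, so a site of equal strength was harder to list in Del8. Ctcf itself averaged 28.5, 33.0 and 34.5 RPKM (a read count per exon length and library size) in d8 lines 1, 2 and 3. In GC it averaged 5.93 RPKM in line 1 and 28.1 RPKM in line 2, so the GC lines stood far apart. Exon counts over the whole gene do not show a loss of finger 8. All 7 ES cell markers examined, Pou5f1 and Nanog among them, exceeded 1 RPKM in both genotypes, with sums of 1470 to 1880 RPKM in d8 and 1430 to 1880 RPKM in GC libraries. Genes of chromosome 11 had a median log2 fold change of -0.40 in d8 against GC over 1067 tested genes, so counts of lower genes are given with and without it.

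Sequence was available for the gene-body peaks that reach into a RefSeq promoter window of 300 bases (build GRCm38.p6, the same assembly as mm10). At least 100 bases of such a window lay in 38 peaks, and 24 of these windows belonged to another gene than the host. A core CTCF pattern, CCANNAGNN followed directly by GGC, was searched on both strands. It was found in 9 of the 38 peaks (23.7%, exact Clopper-Pearson 95% interval 11.4 to 40.2%). The same pattern stood in 15.6% of 913 peaks near starts and in 2.43% of all 32817 windows. Only the part of a peak inside the window was searched, so a peak with no match can hold a core outside it. The share over all windows is for the whole 300 bases, so the searched lengths differ. It was found in 6 of 22 gene-body peaks that have a Del8 peak and in 3 of 16 that have none, shares whose intervals overlap (10.7 to 50.2% and 4.05 to 45.6%). The 9 sequences are shown because they are the gene-body sites with a core match whose fate in Del8 can be set beside their letters, with the core in capitals and 30 bases on each side. All 9 cores lay at most 33.5 bp from the centre of their peak.

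The 6 sites with a Del8 peak were the following, named by host gene. The Dhx30 site is at chr9:110101074-110101145 (minus strand), Stab2 at chr10:86972093-86972164 (plus), S1pr3 at chr13:51418710-51418781 (minus), Myh13 at chr11:67350555-67350626 (minus), D630023F18Rik at chr1:65112171-65112242 (plus) and Nrap at chr19:56356586-56356657 (plus).
Dhx30: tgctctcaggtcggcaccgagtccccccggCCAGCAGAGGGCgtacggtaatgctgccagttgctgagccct
Stab2: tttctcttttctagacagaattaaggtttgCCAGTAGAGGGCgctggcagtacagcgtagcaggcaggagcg
S1pr3: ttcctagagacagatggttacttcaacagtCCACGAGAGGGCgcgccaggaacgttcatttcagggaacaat
Myh13: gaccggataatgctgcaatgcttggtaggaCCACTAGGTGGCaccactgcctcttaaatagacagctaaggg
D630023F18Rik: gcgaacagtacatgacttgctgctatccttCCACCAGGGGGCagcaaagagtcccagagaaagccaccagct
Nrap: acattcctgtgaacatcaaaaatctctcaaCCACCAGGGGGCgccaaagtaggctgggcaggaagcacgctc

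The 3 sites without a Del8 peak were those in Csk at chr9:57645667-57645738 (minus strand), Glra1 at chr11:55518932-55519003 (plus) and Myo1h at chr5:114356791-114356862 (minus).
Csk: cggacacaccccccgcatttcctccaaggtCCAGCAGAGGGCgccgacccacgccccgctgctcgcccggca
Glra1: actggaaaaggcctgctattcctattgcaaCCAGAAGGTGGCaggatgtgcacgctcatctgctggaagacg
Myo1h: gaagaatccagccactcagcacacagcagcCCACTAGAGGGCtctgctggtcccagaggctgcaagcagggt

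The same 12 core letters stood in the Dhx30 site, which has a Del8 peak, and in the Csk site, which has none. Dhx30 encodes an RNA helicase and Csk a tyrosine kinase that restrains Src-family kinases. Only 2 of the 9 cores, those in Dhx30 and Csk, lay on the strand of the host gene. A second pattern, TGCANT within 30 bases 5′ of the core, was found once, at Myh13. These matches describe letters in a promoter window, and gene-body peaks elsewhere were not searched.

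Gene-body peaks stood lower in the GC list than the other GC peaks. Every score in the deposited lists is 1, so the place in the list was taken as a stand-in for strength, which is an assumption, and neighbouring places can follow map order. The median place was 14742 for gene-body peaks, 11114 for peaks near starts and 13318 for peaks outside genes. The list was cut into 5 equal parts, called quintiles, with the first at the top. Gene-body peaks made up 24.3% of the first quintile of the list (1297 peaks), and 32.6, 34.8, 36.7 and 37.7% of the following quintiles. Their density was 10.9 peaks per Mb over 817 Mb of gene sequence beyond 5 kb from a start, against 27.1 per Mb within 5 kb of starts.

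A Del8 peak overlapped 36.6% of the gene-body peaks (3255 of 8882, exact 95% interval 35.6 to 37.7%). Over all GC peaks the share was 42.0%, with 48.3% near starts and 42.8% outside genes. Each genotype has 1 ChIP library, so these shares carry counting error only and no test between genotypes was possible. By quintile of the list, 70.8, 53.2, 36.8, 23.7 and 12.8% of the gene-body peaks had a Del8 peak. Peaks near starts had 79.8, 59.1, 40.0, 26.6 and 13.8%, and peaks outside genes had 75.8, 57.6, 41.1, 25.4 and 13.1%. The gene-body share was the lowest in each quintile. Its interval lay apart from that of peaks near starts in quintiles 1 and 2. It lay apart from that of peaks outside genes in quintiles 1 and 3, and met it at 55.5% in quintile 2. With each quintile weighted equally, the shares were 39.5% in gene bodies, 43.9% near starts and 42.6% outside genes.

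**Figure D1:**
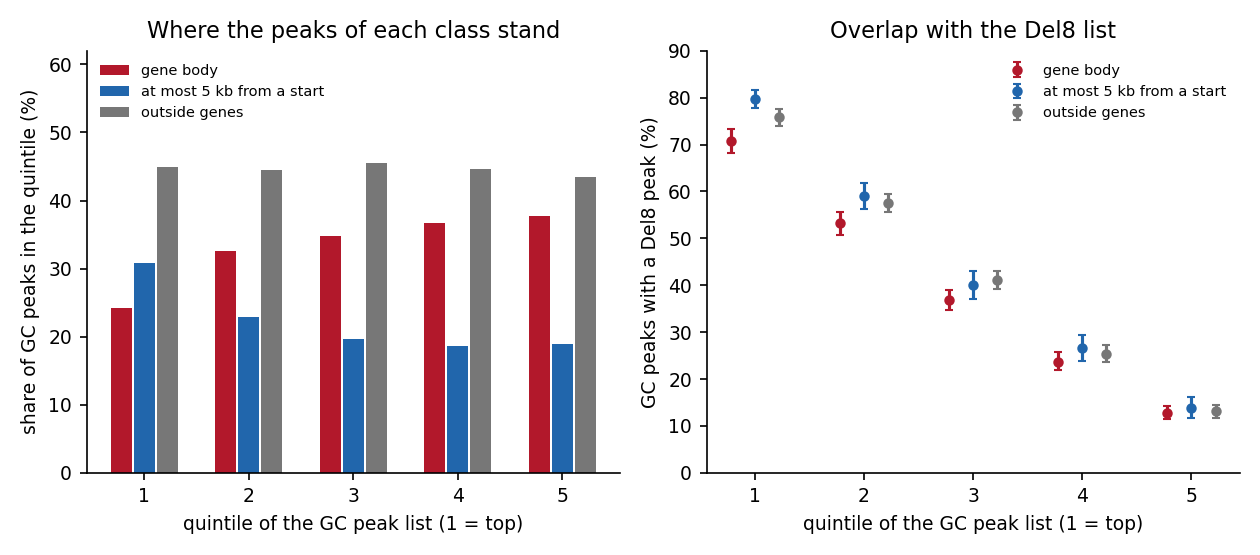
Left, share of the peaks of each quintile of the GC list that lie in gene bodies, at most 5 kb from a start, or outside genes. Right, share of each class with an overlapping Del8 peak, by quintile, with exact 95% intervals for counting error. Gene-body peaks rise from 24.3% of the first quintile to 37.7% of the last, while their overlap with Del8 peaks drops to 12.8% in the last quintile.

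Single peaks departed from this order. The 5 highest placed gene-body peaks with a Del8 peak lay in Cdk5rap2, Cacna1a, Fam129b, H2-DMa and Mdga2, at places 12, 13, 22, 26 and 31. The Cdk5rap2 peak (chr4:70378053-70378285) stood 32.3 kb into the gene, which encodes a centrosome protein. The Cacna1a peak (chr8:84639294-84639526) stood at 99.6% of the length of this gene for a calcium channel pore subunit. The 5 highest placed without a Del8 peak lay in Jph3, Palld, Zfhx3, Stk10 and Dnah17, at places 40, 112, 155, 172 and 267. The Jph3 peak (chr8:121751507-121751739) stood 21.1 kb into this gene for a protein of membrane junctions. The Palld peak (chr8:61539903-61540135) stood 51.2 kb into the gene for an actin-associated protein. Peaks just inside and just outside the 5 kb limit were alike in number. In the 100 bp just above the limit there were 33 peaks, 10 with a Del8 peak, and in the 100 bp just below that limit there were 26 peaks, also 10 with a Del8 peak.

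In the Del8 list the same position rule took 4785 of 15546 peaks (30.8%, against 33.2% in the GC list). Of these, 3256 (68.0%) overlapped a GC peak and 1529 did not. The share with a GC peak was 79.1% for Del8 peaks near starts and 71.4% for those outside genes. Chromosome 8 held 162 of the 1529, out of its 369 Del8 gene-body peaks, and chromosome 1 held 133 of 347. Chromosome 19 held 25 of 144.

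Gene-body peaks grew denser towards the 3′ end of the host gene. Each gene, with or without a peak, was cut into 10 equal parts, called deciles, from start to end. Peaks were counted per Mb of this gene sequence over 5 kb from every start. The density was 7.15 peaks per Mb in the first decile, 9.69 in decile 5 and 14.5 in the last. The 5 kb limit leaves no sequence of genes under 50 kb in the first decile, which held 44.1 Mb against 87.5 Mb in the last. Longer genes had fewer peaks per Mb, so this climb over all genes mixes gene length with position. The median peak stood 35.9 kb from the host's start, 23.3 kb from its end and at 61.7% of its length. Within 5 kb of the host's end lay 1389 peaks (15.6%), of which 45.3% had a Del8 peak.

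The order held within classes of gene length, over genes with or without a peak. Genes under 50 kb had 20.6 peaks per Mb beyond their midpoint and 15.6 before it. Their eligible sequence was 111 Mb beyond the midpoint and 62.7 Mb before it, so length and position are still mixed in this class. Genes of 50 to 200 kb had 13.3 and 9.63 peaks per Mb. In genes over 200 kb, with a more even 164 and 161 Mb, the densities were 6.40 and 5.51. The share with a Del8 peak was 35.6% in the first decile, 32.2% in decile 4 and 43.0% in the last (95% interval 40.3 to 45.8%). In the last decile, 17.4% of the peaks stood in the first quintile of the list, against 7.94% in the first decile, so place in the list moved with position along the gene.

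**Figure D2:**
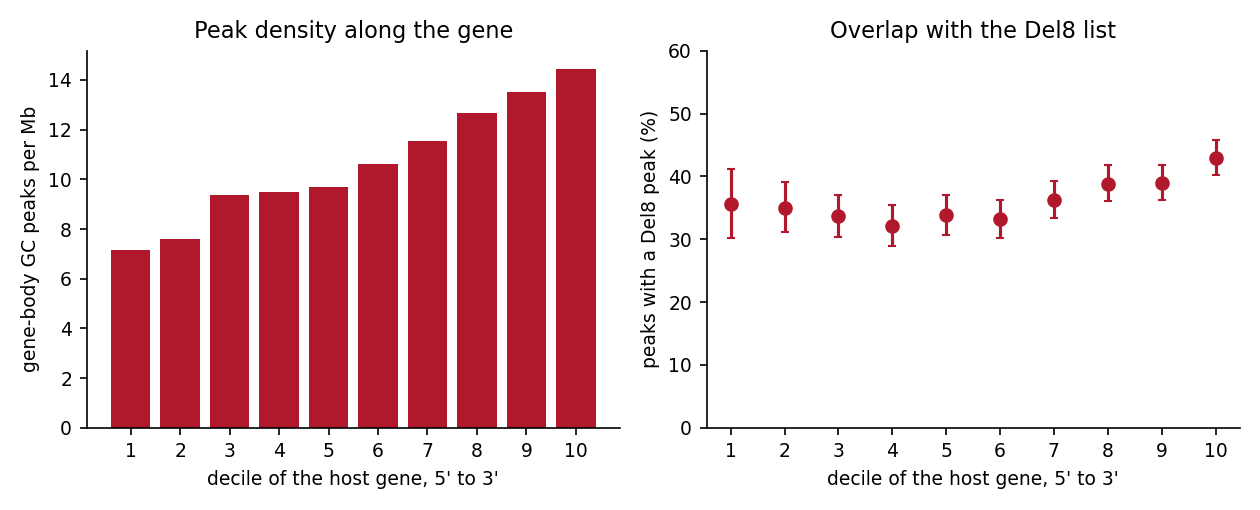
Left, gene-body GC peaks per Mb of eligible sequence in each decile of the gene, from the 5′ to the 3′ end, over genes with or without a peak. Right, share of these peaks with a Del8 peak, with exact 95% intervals for counting error. Density climbs from 7.15 per Mb in the first decile to 14.5 in the last, and the share with a Del8 peak is highest, at 43.0%, in the last decile. The first decile holds no sequence of genes under 50 kb, so the climb mixes gene length with position.

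Chromosomes 8 and 11 had 15.4 gene-body peaks per Mb each, and chromosome X had 3.60. A Del8 peak was present at 41.7% of gene-body peaks on chromosome 19, 40.6% on chromosome 10 and 40.4% on chromosome 7. The share was 29.9% on chromosome 12 and 28.3% on X, where 120 peaks gave an interval of 20.5 to 37.3%.

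Host genes numbered 5345 of the 24940 in the table. Of them 3350 held 1 peak, 1787 held 2 to 4 and 208 held 5 or more. The median span was 38.0 kb with 1 peak, 83.1 kb with 2 to 4 and 260 kb with 5 or more, against 8.58 kb for genes with none. A host was found among 5.94% of genes under 20 kb, 49.0% of those of 50 to 100 kb and 77.1% of those over 200 kb. Nearly all peaks (8777) had 1 host. A peak could lie in up to 25 overlapping genes, as in the protocadherin and Ugt1a clusters, whose transcripts share 3′ exons. The table keeps 1 transcript per gene, so a span can be short of the full gene, as for Dmd at 157 kb.

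Length alone did not set the number. The longest gene of the table, Lrp1b, which encodes a giant lipoprotein receptor-like protein, spans 2057 kb and held no GC gene-body peak and 1 Del8 peak. Il1rapl1, Lingo2, Sntg1 and Pcdh9, at 877 to 1368 kb, also held none. Csmd1 and Ctnna3 had 4 peaks each over 1643 and 1574 kb.

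The gene with most peaks was Camta1, which encodes a calmodulin-binding transcription activator, with 19 peaks over 802 kb, 4 with a Del8 peak. Its first peak stood 10.4 kb from the start, and 9 of the 19 stood beyond 70% of its length. Nav2, which encodes a cytoskeletal neuron navigator, had 15 peaks, 5 with a Del8 peak. Cdh13, for a lipid-anchored cadherin, had 14, 6 of them with a Del8 peak, and its span also held 6 Del8 peaks with no overlapping GC peak. Dnah8, for an axonemal dynein heavy chain, had 13 peaks, 4 with a Del8 peak. Pde4d, for a phosphodiesterase that degrades cAMP, had 13 peaks, 8 with a Del8 peak, and its span held 7 Del8 peaks with no overlapping GC peak.

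Agap1, for a GTPase-activating protein of Arf proteins, had 12 peaks, and 2 had a Del8 peak. These stood at places 10276 and 14536, while its highest placed peak, at place 3468 (chr1:89646672-89646904), had none. Rbfox3, which encodes the neuronal splicing factor NeuN, had 12 peaks, 4 with a Del8 peak, and 4 of the 12 lay between 18.1 and 22.6 kb from its start. Cacna1a, Galntl6 and Ksr2 had 11 each, 6 with a Del8 peak in every case. Wwox, named here because it ties with them, had 11 over 913 kb, 4 with a Del8 peak. In Cacna1a the peak at place 723 had no Del8 peak while the one at place 23891 had one. In Ksr2, which encodes a scaffold of the Ras to MAP kinase cascade, 7 of 11 peaks lay between 80.2 and 108.7 kb from the start.

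The densest hosts among genes with at least 5 peaks were shorter. Erdr1, on chromosome Y, had 7 peaks in 31.0 kb, all in the first quintile of the list and 6 with a Del8 peak. Amz1, for a metalloprotease-like protein, had 5 peaks in 29.2 kb, 1 with a Del8 peak. Cdh3, which encodes P-cadherin, had 6 in 46.1 kb, 2 with a Del8 peak. Tmem44 had 5 in 38.7 kb (3 with a Del8 peak) and Slc37a1, for a sugar phosphate transporter, had 7 in 55.2 kb (2 with a Del8 peak).

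**Figure D3:**
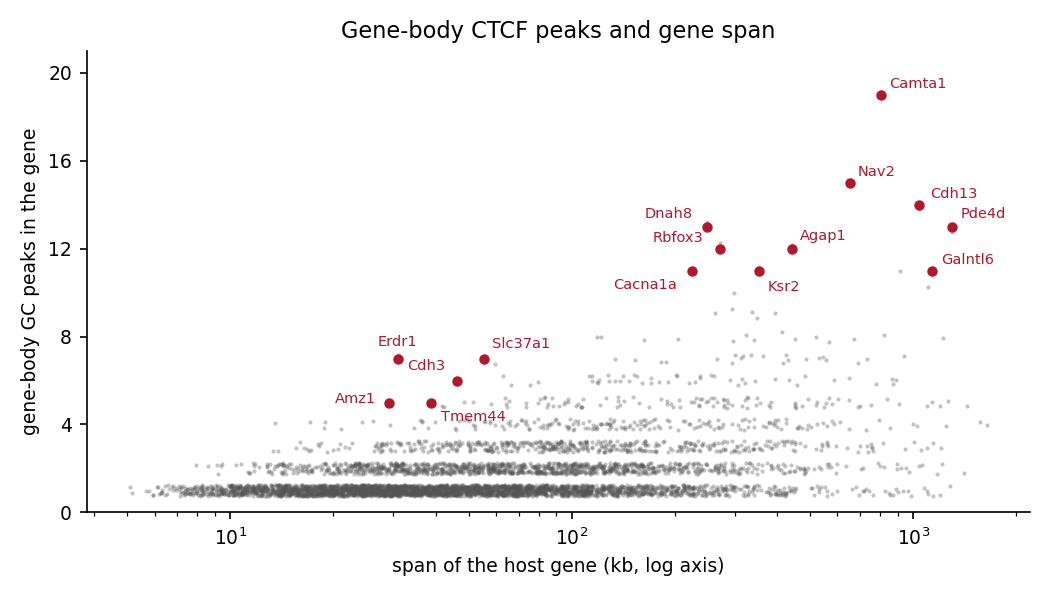
Number of gene-body GC peaks in each of the 5345 host genes against the span of the gene in kb on a log axis. Grey points are spread slightly along the vertical axis to show overlap, and the genes with most peaks and the densest hosts are in red at their exact numbers. Camta1 stands highest with 19 peaks, while Erdr1 reaches 7 peaks in 31.0 kb.

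Among hosts, 1408 had a Del8 peak at every gene-body peak, 2778 at none and 1159 at some. Of the 1408, 1218 held 1 peak only. Of the 392 genes with 4 or more peaks, 9 had a Del8 peak at every peak and 57 at none. No gene with 5 or more peaks had a Del8 peak at every one. At the 36.6% share of all gene-body peaks, a Del8 peak at every peak grows rarer with each further peak, so these counts are description only. Hk2, the hexokinase that starts glucose use, kept a Del8 peak at all 4 of its peaks, although 2 of them stood in the fourth quintile of the list. Mapt, for the microtubule protein tau, kept all 4, of which 3 stood in the first quintile. Pdzd2 and 2610035D17Rik also had 4 of 4.

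Among genes with a Del8 peak at none, those with most peaks were Auts2, a neurodevelopmental gene tied to Polycomb complexes, with 10 peaks over 1105 kb, and Zfp982, for a zinc finger protein, with 9. None of the Auts2 or Zfp982 peaks stood in the first quintile. Zfp982 did hold 4 Del8 peaks at other positions. Tmem132c had 8, and Ephb2, for an ephrin receptor, and Lhfpl3 had 7 each. Ephb2 included peaks at places 699 and 3556, both without a Del8 peak (chr4:136648934-136649166 and chr4:136678509-136678741).

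Host genes covered the whole range of expression. Their median level was 3.38 RPKM in d8 and 3.36 RPKM in GC lines, against 0.43 RPKM in both genotypes for genes with no gene-body peak. Gene length differs between these sets, since a gene of under 5 kb cannot be a host. Within each of 5 length classes the hosts still had the higher median. In genes over 200 kb, hosts had a median of 0.67 RPKM in d8 and 0.58 RPKM in GC, and genes with no peak had 0.091 and 0.11 RPKM. At 50 to 100 kb, hosts had 4.76 and 4.96 RPKM and genes with no peak had 3.49 and 3.55 RPKM.

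Peak density, over genes with or without a peak, was 6.50 per Mb at 0 to 0.1 RPKM in GC and 16.6 per Mb over 50 RPKM. Within length classes this order did not hold throughout. In genes under 50 kb the density was 12.1 per Mb at 0 to 0.1 RPKM, 23.4 at 0.1 to 1 RPKM and 18.6 over 50 RPKM. In genes over 200 kb it was 3.68 at 0 to 0.1 RPKM and 9.90 at 10 to 50 RPKM. The share of peaks with a Del8 peak was 38.7% at 0 to 0.1 RPKM, 40.6% at 0.1 to 1, 37.6% at 1 to 10, 31.5% at 10 to 50 and 30.8% over 50 RPKM. In the last 2 classes the intervals, 29.5 to 33.6% and 26.4 to 35.5%, lay below that of the 0.1 to 1 class (38.3 to 42.9%). The first quintile of the list held 16.7% of the peaks at 0.1 to 1 RPKM and 11.0% over 50 RPKM. With quintiles weighted equally the shares were 41.9% at 0.1 to 1 RPKM and 36.7% over 50 RPKM.

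**Figure D4:**
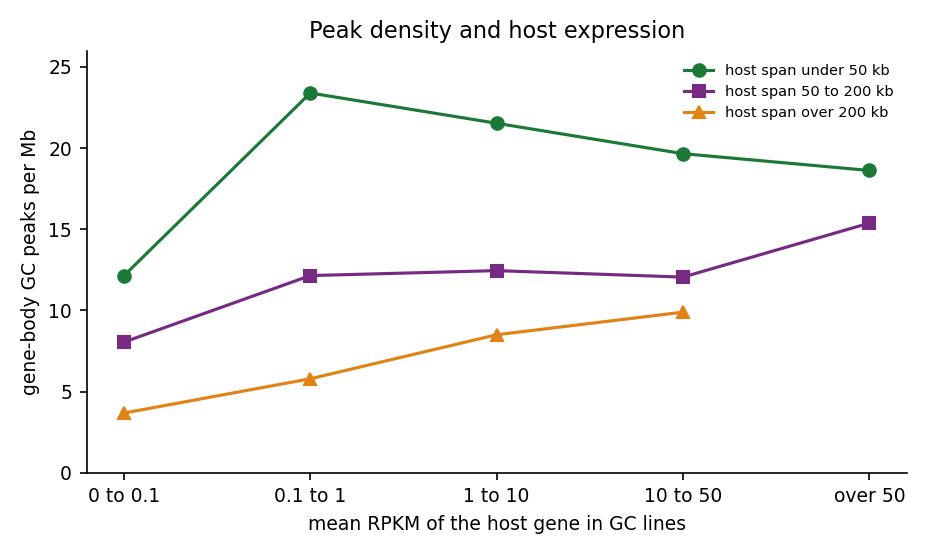
Gene-body GC peaks per Mb of eligible sequence by mean RPKM of the gene in GC lines, in 3 classes of gene span. Genes with or without a peak are counted. Classes with under 20 peaks are left out. Density is lowest at 0 to 0.1 RPKM in each class, at 12.1, 8.05 and 3.68 per Mb, and is highest in the shortest genes.

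Expression in d8 against GC was tested over lines with limma on log2(RPKM + 1) line means, with Benjamini-Hochberg adjustment over 12468 genes of at least 1 RPKM in either genotype. Several libraries of 1 line were averaged, so p-values measure the spread between lines. Of all genes tested, 3.02% rose and 5.74% fell in d8 at an adjusted p of at most 0.05. Of the 3509 host genes tested, 138 rose (3.93%) and 178 fell (5.07%), with a median log2 fold change of 0.001, against -0.023 over all genes. Both shares were near the background. Chromosome 11 held 92 of the 178 that fell and 1 of the 138 that rose. Without chromosome 11 in the count, 137 of 3221 hosts rose (4.25%) and 86 fell (2.67%), against 3.28% and 2.89% of all genes. Over all genes, too, more rose (374) than fell (329) once chromosome 11 was left out of the count, so this turn is not particular to hosts. With each chromosome centred in each line before the fit, 107 hosts rose and 66 fell. The matching counts over all genes were not taken for that fit.

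These counts depended on single lines. Counts over all genes were not taken without each line, so the dependence cannot be called particular to hosts. The higher and lower host genes numbered 15 and 23 without d8 line 1, 79 and 83 without d8 line 2, and 1 and 6 without d8 line 3. They numbered 2 and 7 without GC line 1, the line of low Ctcf, and 42 and 88 without GC line 2.

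Hosts of many peaks were a small group. With 5 or more peaks, 10 of 134 tested genes rose (7.46%) and 5 fell (3.73%), against 3.02% and 5.74% of all genes, and the median log2 fold change was 0.11. With 1 peak, 69 of 2187 rose (3.16%) and 109 fell (4.98%), and with 2 to 4 peaks 59 of 1188 rose (4.97%) and 64 fell (5.39%). Without chromosome 11 in the count, 4 of 127 genes with 5 or more peaks fell (3.15%), 47 of 2007 with 1 peak (2.34%) and 35 of 1087 with 2 to 4 (3.22%). In that count 10 (7.87%), 68 (3.39%) and 59 (5.43%) rose, in the same order. All genes then had 3.28% higher and 2.89% lower. Genes over 200 kb had a median of 0.089 among hosts and 0.15 among the 51 tested genes with no peak, so gene length moved with these medians and its part was not tested. Without d8 line 3, or without GC line 1, none of the genes with 5 or more peaks passed in either direction.

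The fate of the peaks in Del8 was set beside the same counts. Of 858 tested hosts with a Del8 peak at every gene-body peak, 26 rose (3.03%) and 40 fell (4.66%). Of 1887 with a Del8 peak at none, 72 rose (3.82%) and 95 fell (5.03%). Of 764 with a Del8 peak at some, 40 rose (5.24%) and 43 fell (5.63%). Without chromosome 11 in the count, 16 with a Del8 peak at every peak fell (2.08%), 43 with one at none (2.46%) and 27 with one at some (3.86%), against 2.89% of all genes. In that count 26 (3.37%), 71 (4.05%) and 40 (5.72%) rose, against 3.28% of all genes. The medians of the log2 fold change with chromosome 11 were -0.010, -0.006 and 0.037 in that order. Among 229 tested genes that had a peak of the first quintile with no Del8 peak, 15 rose (6.55%) and 11 fell (4.80%). Among 530 whose peak of the first quintile had one, 25 rose (4.72%) and 26 fell (4.91%). Against 3.02% and 5.74% of all genes, these are small counts. Without chromosome 11 in the count, 15 of 211 rose (7.11%) and 5 fell (2.37%) where that peak had no Del8 peak. Where it had one, 25 of 477 rose (5.24%) and 15 fell (3.14%), against 3.28% and 2.89% of all genes.

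Among the 10 genes with most peaks, Nav2 and Ksr2 rose in d8. Nav2 had 15.3 to 22.3 RPKM (median 19.4) in d8 and 9.86 to 15.2 RPKM (median 15.0) in GC libraries, narrowly without overlap. Its log2 fold change was 0.47 ± 0.11 (SE; limma, adjusted p = 0.045). Ksr2 had 0.73 to 1.53 RPKM (median 0.97) in d8 and 0.18 to 0.50 RPKM (median 0.30) in GC libraries, again without overlap (log2 fold change 0.66 ± 0.14, limma adjusted p = 0.040). Both calls were lost when any 1 of the 5 lines was left out, with adjusted p of 0.055 to 0.15 for Nav2 and 0.068 to 0.13 for Ksr2. Camta1 had line means of 3.28, 2.79 and 3.26 RPKM in d8 and 2.47 and 2.48 RPKM in GC, and did not pass (adjusted p = 0.26). Agap1 (0.34 on the log2 scale, adjusted p = 0.16) and Cacna1a (0.34, adjusted p = 0.12) did not pass either. Dnah8 and Pde4d had values of -0.05 and -0.02, with adjusted p of 0.86 and 0.96. Cdh13, Rbfox3 and Galntl6 were below the level for testing.

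The dense and the one-fate hosts gave no call. Erdr1 had 20.1 to 36.7 RPKM (median 28.9) in d8 and 10.7 to 25.9 RPKM (median 17.2) in GC libraries. Its log2 fold change of 0.68 had an adjusted p of 0.0505, and in the authors' deposited table its value was -0.864. Mapt, with all 4 peaks kept, had line means of 2.40, 2.57 and 1.49 RPKM in d8 and 3.21 and 4.27 RPKM in GC (log2 fold change -0.58, adjusted p = 0.10). Hk2 had 38.9, 46.8 and 41.0 RPKM in d8 and 42.6 and 45.9 RPKM in GC, so the lines overlapped. Auts2, with all 10 peaks without a Del8 peak, had 6.24, 5.22 and 6.60 RPKM in d8 and 5.79 and 6.61 RPKM in GC, also overlapping. Ephb2 had 1.78, 1.54 and 1.62 RPKM in d8 and 1.25 and 1.28 RPKM in GC, and its log2 fold change of 0.22 did not pass (adjusted p = 0.29).

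The host gene with the lowest fold change was Col1a1, for the main chain of type I collagen. It had 0.30 to 2.23 RPKM (median 0.73) in d8 and 5.82 to 28.0 RPKM (median 9.23) in GC libraries, with no overlap (log2 fold change -2.61 ± 0.27, limma adjusted p = 0.012). Its single gene-body peak stood at place 18340 and had no Del8 peak. Summed markers of fibroblasts, of which Col1a1 is one, were 6.76 to 9.59 RPKM in d8 and 15.8 to 47.9 RPKM in GC libraries. Col1a1 itself was the highest of them in GC (mean 11.8 RPKM) and Thy1 in d8 (5.12 RPKM), so these sums include the change of Col1a1. Of the 7 fibroblast markers, 2 in d8 and 6 in GC exceeded 1 RPKM, and Lum was near 0 in both (0.016 and 0.061 RPKM). The part of these markers in the result was not tested, and in bulk RNA fewer cells of a type and less RNA per cell cannot be told apart. Acta2, for smooth muscle actin, had 12.3 to 33.1 RPKM (median 15.7) in d8 and 36.7 to 165 RPKM (median 46.8) in GC libraries. Its log2 fold change was -1.76 ± 0.21 (limma, adjusted p = 0.016), and its peak had no Del8 peak.

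R3hcc1, for an R3H-domain protein, had 1.23 to 2.73 RPKM (median 1.83) in d8 and 13.7 to 15.5 RPKM (median 15.1) in GC libraries. Its change on the log2 scale was -2.44 ± 0.16 (limma, adjusted p = 0.0033). Bola3, for a factor of mitochondrial iron-sulfur cluster assembly, had 0.49 to 1.04 RPKM (median 0.84) in d8 and 5.26 to 11.3 RPKM (median 7.80) in GC libraries (-2.27 ± 0.14, adjusted p = 0.0033). In both genes the groups were far apart, and the single gene-body peak stood in the first quintile and had a Del8 peak. The Bola3 peak (chr6:83356605-83356837) stood 7.24 kb into the gene, and the R3hcc1 peak (chr14:69707474-69707706) 7.22 kb.

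Mipep, a peptidase of mitochondrial import, had 1.03 to 2.02 RPKM (median 1.51) in d8 and 6.99 to 9.53 RPKM (median 8.90) in GC libraries (-1.92 ± 0.14, adjusted p = 0.0057). It held 3 peaks, and the highest placed had a Del8 peak. Aif1l, for an actin-binding protein, had 1.59 to 2.99 RPKM (median 1.91) in d8 and 7.20 to 15.0 RPKM (median 8.96) in GC libraries (-1.82 ± 0.14, adjusted p = 0.0057), and its peak had no Del8 peak. The calls of R3hcc1, Bola3, Mipep and Aif1l held without any 1 line. With no filter on low values, Bola3 alone of the 19 named calls passed (adjusted p = 0.044), while R3hcc1, Mipep and Aif1l had adjusted p of 0.053, 0.055 and 0.055. That of Col1a1 was lost without d8 line 3 and that of Acta2 without d8 line 3 or GC line 1, where the highest adjusted p was 0.061 and 0.068. In the authors' deposited table Bola3, R3hcc1 and Mipep had log2 fold changes of -3.91, -2.30 and -1.97.

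Gata4, a transcription factor of endoderm and heart, had the highest fold change among hosts on the log2(RPKM + 1) scale, which shrinks changes of weakly expressed genes such as Nrg2. It had 4.26 to 10.0 RPKM (median 6.18) in d8 and 0.85 to 2.16 RPKM (median 1.52) in GC libraries, with no overlap (1.58 ± 0.20, limma adjusted p = 0.016). Its peak had no Del8 peak. Summed markers of primitive endoderm, of which Gata4 is one, overlapped between d8 (75.6 to 310 RPKM) and GC libraries (146 to 312 RPKM). Of the 6 markers, 4 exceeded 1 RPKM in d8 and 3 in GC. Sparc was the highest of them (mean 147 RPKM in d8 and 206 RPKM in GC) and made up most of these sums. The lowest was Foxa2 in d8 (0.594 RPKM) and Sox17 in GC (0.180 RPKM), so the sums say little on the weaker markers. Nrg2, a ligand of ErbB receptors, had 1.54 to 4.58 RPKM (median 2.93) in d8 and 0.15 to 0.44 RPKM (median 0.26) in GC libraries (1.54 ± 0.19, adjusted p = 0.016). It held 3 peaks, and those at places 2267 and 18745 had no Del8 peak while that at place 509 had one.

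Ccdc136, for a coiled-coil protein, had 24.1 to 36.8 RPKM (median 30.1) in d8 and 8.09 to 16.9 RPKM (median 11.3) in GC libraries (1.29 ± 0.21, adjusted p = 0.023). Rab15, for a GTPase of endosomal traffic, had 17.2 to 26.5 RPKM (median 22.1) in d8 and 6.95 to 11.7 RPKM (median 8.41) in GC libraries (1.25 ± 0.13, adjusted p = 0.012). The groups did not overlap in either gene. Dennd5b, for an exchange factor of Rab GTPases, rose by 1.23 ± 0.13 on the log2 scale (adjusted p = 0.013), and the transcription factor gene Mef2b by 1.21 ± 0.21 (adjusted p = 0.025). The peaks of Ccdc136 and Mef2b had a Del8 peak, the peak of Rab15 had none, and 1 of the 2 in Dennd5b had one. Each of the 6 calls was lost without at least 1 line. GC line 1 was one of these for Gata4, Nrg2, Rab15 and Mef2b, d8 line 3 for Gata4, Ccdc136, Rab15, Dennd5b and Mef2b, d8 line 1 for Ccdc136 and Mef2b, and GC line 2 for Mef2b. The highest adjusted p without a line was 0.066 for Gata4, 0.071 for Nrg2, 0.083 for Ccdc136, 0.064 for Rab15, 0.061 for Dennd5b and 0.11 for Mef2b.

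**Figure D5:**
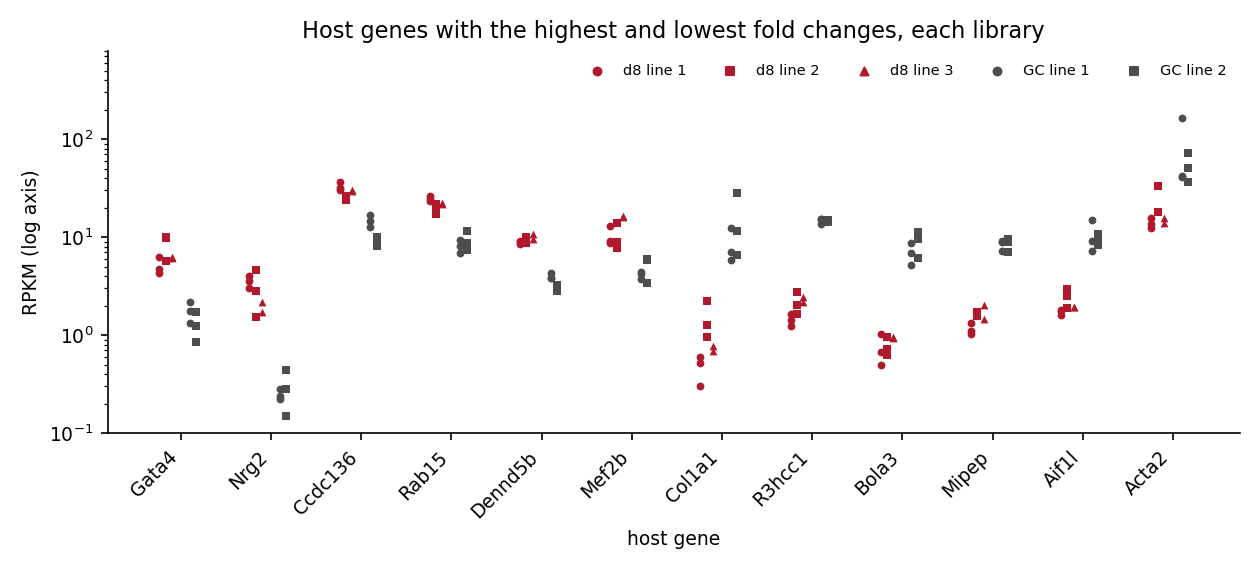
RPKM of the 6 host genes with the highest and the 6 with the lowest fold changes past the threshold, on a log axis, with 1 point per library. Libraries of the 3 d8 lines are in red on the left of each pair and those of the 2 GC lines in grey on the right, with a marker shape per line. The groups do not overlap in any of the 12 genes, and Acta2 has a single GC line 1 library at 165 RPKM.

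Of the 5 host genes of highest level, 2 passed. Lamp1, for a lysosomal membrane protein, had 315 to 387 RPKM (median 351) in d8 and 258 to 312 RPKM (median 268) in GC libraries (0.39 ± 0.08, limma adjusted p = 0.034). Mybbp1a, a nucleolar Myb-binding protein gene on chromosome 11, had 211 to 259 RPKM (median 233) in d8 and 281 to 356 RPKM (median 319) in GC libraries (-0.44 ± 0.07, adjusted p = 0.021). With each chromosome centred in each line, Mybbp1a had -0.05 (adjusted p = 0.69) and Col1a1, also on chromosome 11, had -2.22 (adjusted p = 0.016). The Lamp1 call was lost without any 1 line (highest adjusted p = 0.12). The Mybbp1a call was lost without d8 line 1, d8 line 3 or GC line 1 (highest adjusted p = 0.093). Nedd4, a ubiquitin ligase gene with 5 gene-body peaks and 3 Del8 peaks among them, had line means of 487, 499 and 507 RPKM in d8 and 436 and 433 RPKM in GC, and did not pass (0.20, adjusted p = 0.098). Eif3k and Cox6b1 did not pass.

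Lists of genes by function were chosen with earlier results of these data known and are given as counts. Of 39 long neuronal and adhesion genes in the table, 32 were hosts, with 98 peaks. Of these peaks 23 (23.5%) had a Del8 peak, against 36.6% of all gene-body peaks and 33.1% of those in genes over 200 kb. Auts2 alone held 10 of the 98, none with a Del8 peak, and the places of the 98 in the GC list were not compared. None of the 12 hosts tested passed, at a median log2 fold change of 0.20. Dmd, the dystrophin gene, had line means of 15.2, 10.5 and 11.5 RPKM in d8 and 8.00 RPKM in both GC lines (0.56, adjusted p = 0.072). Tenm3, for a teneurin adhesion protein, had 5 peaks and no Del8 peak at any of them.

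For the smaller lists that follow, the background is 5345 hosts among 24940 genes and a Del8 peak at 36.6% of gene-body peaks. Of 28 pluripotency genes 6 were hosts, with 11 peaks, 5 of them with a Del8 peak. None of these hosts passed, while 3 genes of the whole list rose and 1 fell. Esrrb, a nuclear receptor of the naive state, had 2 peaks without a Del8 peak and 36.9 to 72.2 RPKM (median 54.0) in d8 against 47.2 to 97.0 RPKM (median 62.3) in GC libraries, which overlapped. Lin28a, for an RNA-binding protein, had a log2 fold change of 0.24 (adjusted p = 0.088). Of 16 CTCF and cohesin genes 5 were hosts, and 2 of their 10 peaks had a Del8 peak. None of the 4 hosts tested passed, while 1 gene of the whole list rose. Smc3 (2 peaks) and Stag1 (4 peaks), for a core and an accessory cohesin subunit, had no Del8 peak at any, and their log2 fold changes of -0.16 and -0.12 did not pass.

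Of 19 DNA methylation genes 5 were hosts, and 3 of the whole list rose. Among the hosts Dnmt3b, a de novo DNA methyltransferase gene, rose. It had 207 to 351 RPKM (median 315) in d8 and 111 to 280 RPKM (median 202) in GC libraries, which overlapped, while the line means did not (0.61 ± 0.10, limma adjusted p = 0.023). Its call was lost with line as a random block (adjusted p = 0.091) and with the replicate block by letter (adjusted p = 0.13). Without GC line 1 sample B and GC line 2 sample C its log2 fold change was 0.36 (adjusted p = 0.086). The Dnmt3b peak, at 50.6% of the gene, had no Del8 peak. Of 26 Polycomb genes 10 were hosts, and over the whole list 2 rose and 3 fell. Cbx7, for a chromodomain subunit, rose to 82.7 to 115 RPKM (median 101) in d8, against 54.4 to 68.7 RPKM (median 59.4) in GC libraries (0.71 ± 0.11, adjusted p = 0.021). Pcgf5, for a RING-complex subunit, had 4.04 to 7.10 RPKM (median 6.18) in d8 and 6.92 to 13.0 RPKM (median 8.90) in GC libraries, and fell (-0.59 ± 0.14, adjusted p = 0.0499). Neither of their peaks had a Del8 peak. The Pcgf5 call was lost without any 1 line (highest adjusted p = 0.18), that of Dnmt3b without d8 line 1, d8 line 3, GC line 1 or GC line 2 (highest 0.083), and that of Cbx7 without d8 line 1, d8 line 3 or GC line 1 (highest 0.094). Of 43 signalling receptors and mediators 21 were hosts, with 30 peaks, 10 with a Del8 peak. None of the 19 hosts tested passed, Fgfr1 (-0.05) and Tcf7 (-0.27) among them, while 3 genes of the whole list rose.

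The authors' deposited table of control against del8 cells lists 1280 genes, 664 with a positive and 616 with a negative log2 fold change. Of these genes 423 were hosts of gene-body peaks, 225 positive and 198 negative, a split near that over all its genes. Of the 280 genes that also passed between the d8 and GC lines, 273 had the same sign, and 89 of 93 among hosts, from which the table's direction was read as del8 over control. Some named hosts that did not pass over lines are in the authors' deposited table, with log2 fold changes of -0.906 for Pde4d, -0.836 for Slc37a1, -0.591 for Hk2, -0.549 for Stag1 and 0.80 for Pdzd2. Of the named hosts that rose, the authors' deposited table has Nrg2 at 2.97, Ccdc136 at 1.58, Gata4 at 1.07, Mef2b at 0.981, Rab15 at 0.82, Dnmt3b at 0.724 and Dennd5b at 0.666. Nav2, Ksr2, Lamp1 and Cbx7, which rose, and Col1a1, Acta2, Aif1l, Mybbp1a and Pcgf5, which fell, are not among its 1280 genes. By the fate of the peaks, the authors' deposited table held 61 positive and 52 negative hosts with a Del8 peak at all, and 103 positive and 94 negative with a Del8 peak at none.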

How the data were processed

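Peak lists of 1 Del8 and 1 GC ChIP-seq library and a table of 14 RNA-seq libraries were used. HOMER called the peaks, per the file headers, at a false discovery rate of 0.001 and 4-fold over the surrounding 10000 bp, on coordinates taken as mm10, the build of the gene table. Every deposited peak score is 1. The authors deposited RPKM values, counted over RefSeq exons with 1 transcript per gene and no strand setting, per the file headers, so reads of overlapping antisense genes are mixed. Further tools in the submitters' processing notes are Bowtie, HISAT2, SAMtools, deepTools and DESeq2. The authors' deposited comparison table gives log2 fold changes and p-values, and its 5 per-library columns, which match no sample, were not used.

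RPKM steps gave whole reads in 100.0% of values checked (tolerance 0.1 read). Overlap meant at least 1 bp, and intervals (95%, Clopper-Pearson) cover counting error only. For a peak in several genes the longest gave the position. Expression was tested with limma 3.58.1 (R 4.3.3, trend, two-sided, Benjamini-Hochberg) on line means of log2(RPKM + 1) for genes averaging 1 RPKM or more in d8 or GC. The added 1 shrinks the fold changes of weakly expressed genes. The script was tested on simulated data. Counts and shares used Python 3.11.15.

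Named genes were the 10 with most peaks, the 5 densest with at least 5 peaks, up to 5 with at least 4 peaks of one fate, the 6 highest and 6 lowest fold changes past the threshold, the 5 of highest level, and list members; 1 of these genes is not reported here. Sequences came from RefSeq promoter windows instead of the peaks themselves, as no genome was used here. Members and lists were chosen with earlier results of these data known. Exons and introns were not assigned.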

Additional observations from a re-analysis of the deposited data

Results flagged for a closer look

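In 9 of 106 groups of libraries checked, over the 53 named genes, 1 library stood far from the others of its genotype by Dixon's criterion, which flags about 1 group in 20 by chance. Of these, 3 were in GC line 1 sample B. Acta2 had 165.4 RPKM there, against 36.7 to 71.8 RPKM in the other GC libraries. Cdh13 had 1.751 RPKM (others 0.56 to 0.90) and Lamp1 312.2 RPKM (others 258 to 271). Another 3 were in GC line 2 sample C, where Col1a1 had 27.96 RPKM (others 5.82 to 12.3), Mapt 6.821 RPKM (others 2.96 to 3.41) and Pcgf5 13.01 RPKM (others 6.92 to 9.19). In d8 line 2, sample B had 33.15 RPKM of Acta2 (others 12.3 to 18.1) and 52.84 RPKM of Hk2 (others 37.3 to 44.6), and sample C had 57.44 RPKM of Smc3 (others 48.3 to 52.6).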

How the results depend on the processing

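The share of gene-body peaks with a Del8 peak was 34.9% when at least 50% of the GC peak had to be covered, 25.8% with centres at most 50 bp apart, 22.5% against the upper part of the Del8 list (places up to its midpoint) and 52.3% in the 4730 gene-body peaks of a GC list cut to the length of the Del8 list. It stayed within its interval in the other 5 alternatives run. The share of peaks beyond the host's midpoint was 62.6%, with 64.5% in the shortened list and 59.4 and 65.8% at limits of 2 and 10 kb from starts. Higher and lower host genes (138 and 178) numbered 6 and 9 with no filter on low values, 64 and 48 in a fit without chromosome 11, 372 and 379 with line as a random block and 593 and 599 over 14 independent libraries. With each chromosome centred they numbered 107 and 66, and with quantile normalization 169 and 154. Counts over all genes were not taken in these alternatives, so the shifts cannot be called particular to hosts. Leaving out 1 line gave 1 to 79 higher and 6 to 88 lower. Sample letters did not pair the libraries (correlations 0.135, 0.114 and -0.153), and the replicate block by letter gave 336 and 337. Without GC line 1 sample B and GC line 2 sample C, an alternative chosen after seeing the data, 108 and 160 passed. No sign of the 19 named calls turned in any alternative run. With no filter, 18 of the 19 calls were lost, and the cause was not tested. Peak sequences 10 kb away and exon shares were not run, for want of a genome.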
